A study of Mus musculus with 6 samples.

Results

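Matrix Gla protein, Mgp, and 8 genes that govern whether extracellular calcium phosphate forms were followed in mouse kidney tubular cells with and without a knockdown of Glis2. The genes are Mgp, Spp1, Enpp1, Alpl, Ggcx, Vkorc1, Ank, Abcc6 and Phex, and every array probe whose annotated symbol was one of these 9 was taken. That gave 12 of the 45281 probes, for 7 of the 9 genes and of the 19057 genes on the array; Spp1 and Enpp1 were not analysed here. The set was drawn up by name with results of this same comparison known, around Mgp, which was chosen by its log2 fold change between the groups, so the differences of these 12 probes are given as a description without a test.

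The cells were immortalized proximal tubular cells of C56BL/6 background (spelled as in the labels), carrying a stable short hairpin RNA against GFP in the Control group or against Glis2 in the Glis2KD group. Harvest was 7 days after the lentivirus was added, and total RNA was hybridised with Cy3 to an Illumina mouse bead array, 3 arrays per group. Whether arrays within a group stand for independent cultures, and how many hairpins were used, is not stated in the labels, so the spread between arrays may be technical. In such a design an effect of lowering Glis2 and any other effect of the hairpin cannot be told apart.

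Calcification in soft tissue is held back by several layers of control. Mgp is a small secreted protein that binds mineral and bone morphogenetic proteins (BMPs) and works after Ggcx, the gamma-glutamyl carboxylase, has modified its glutamate residues with the help of vitamin K recycled by Vkorc1. A second layer is inorganic pyrophosphate, a direct inhibitor of crystal growth: Enpp1 makes it from extracellular nucleotides, Ank and Abcc6 raise it by moving pyrophosphate or ATP out of the cell, and the tissue-nonspecific alkaline phosphatase Alpl destroys it. Spp1, osteopontin, is an acidic phosphoprotein that coats crystals, and Phex is a membrane endopeptidase whose loss causes renal phosphate wasting.

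Of Mgp and Ank, the genes of the set that differed most, Ank had an entry in the promoter table of RefSeq (build GRCm38.p6). The bases before its start are printed beside those of Phex, which has the fewest CG pairs of the measured genes with a window above background, to show the range of base composition in the set; neither is typical, and composition is not set against expression. Capitals mark CG pairs, and both sequences run 5′ to 3′ on the strand of the gene.

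Ank, chr15:27466427-27466676, plus strand: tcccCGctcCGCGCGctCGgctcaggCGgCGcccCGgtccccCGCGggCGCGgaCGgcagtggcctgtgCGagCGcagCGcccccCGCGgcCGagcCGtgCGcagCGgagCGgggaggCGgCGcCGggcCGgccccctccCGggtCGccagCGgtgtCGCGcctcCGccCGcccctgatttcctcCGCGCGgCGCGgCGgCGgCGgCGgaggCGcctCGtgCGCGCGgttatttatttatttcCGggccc
Phex, chrX:157415287-157415536, minus strand: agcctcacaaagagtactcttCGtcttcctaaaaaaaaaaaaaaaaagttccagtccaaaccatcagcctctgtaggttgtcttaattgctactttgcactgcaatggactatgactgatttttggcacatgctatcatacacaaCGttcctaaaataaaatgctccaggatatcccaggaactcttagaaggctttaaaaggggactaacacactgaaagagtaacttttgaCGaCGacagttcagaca

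The 250 bases before Ank held 49 CG pairs and were 81.2% G or C, and those before Phex held 4 and were 39.2% G or C; the median over 32851 promoter windows was 6 pairs. Over the full windows of 300 bases, Ggcx and Vkorc1 lay in between with 21 and 11 pairs, against 53 for Ank and 4 for Phex. The table had windows for 7 of the 9 genes, 9 windows in all, each from 250 bases before to 50 after a start. A core motif of the Glis family, TGGGGGGT, and the Gli motif GACCACCCA, searched on both strands, had 0 matches in these 9 windows. Over all windows of 300 bases, 1.53% held the first and 0.253% the second, so windows without a match are the usual case.

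The arrays had been brought to a common distribution, with an intensity range from 85.4 to 52227. Background was not subtracted, and a limit of 137 (113, the mode of the intensities, raised by 3 SDs of 7.95 each, the SD being estimated from values under the mode) was taken to separate signal from background; 40.8% of probes on each array exceeded it. Glis2 itself was lower in the knockdown. Its brighter probe read 278, 234 and 230 in Control and 169, 161 and 176 in Glis2KD, a log2 fold change of -0.55 ± 0.089 (SE, limma's adjusted p = 7.16e-05), and its other probe had -0.36 ± 0.090. On both probes the groups did not overlap. With background included the mean of the brighter probe fell by 31.8%, and with the mode subtracted it fell by 58.6%, against a knockdown of over 80% stated for the cells. The labelled cell type was sparsely marked: 3 of 12 measured proximal tubule genes, Aqp1, Mme and Dab2, had a mean over the 6 arrays above the limit, and the endocytic receptor Lrp2 and the phosphate transporter Slc34a1 were under it on every array. Mme passed through its Control arrays alone, at a mean of 855, and was under the limit on all Glis2KD arrays, at a mean of 118.

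Mgp showed the lowest log2 fold change of all 45281 probes. Its single probe, ILMN_2666018, read 7624, 5429 and 7793 on the Control arrays and 103, 128 and 120 on the Glis2KD arrays. All 3 control arrays were far above the limit of 137 and all 3 knockdown arrays were under it, so the groups lay wide apart and the knockdown level is known only as a bound. The means were 6949 ± 1320 and 117 ± 12.6 (SD, n = 3), and Mgp was at least 50.1-fold lower. The fitted log2 difference was -5.88 ± 0.11 (SE), a value whose size depends on how background is treated. With the mode subtracted from the arrays, 6840 units of signal were left in Control and 3.82 in Glis2KD. In bulk RNA, fewer cells that express a gene and less of its RNA per cell cannot be told apart.

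As deposited, with background included, the control level of Mgp was also the least even of the 12 probes. Its coefficient of variation was 19.0% over the Control arrays, against 2.63% to 14.0% for the other 11 probes. Background in the mean lowers this measure for dim probes, so the order holds for the deposited readings alone. With the mode subtracted, Alpl had a Control mean of 17.9 at an SD of 18.0, and Mgp 6840 at 1320. Control replicate 2 was the low one for Mgp, and without it the log2 difference was -6.05. The genes around Mgp on chromosome 6 did not share the size of its difference. The nearest 50 genes above background, 25 on each side, had a median log2 fold change of -0.07 and reached no lower than -2.18. Limma called 18 of them lower and 3 higher, where 42.3% of all 9642 genes above background were called in either direction.

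Ank, a membrane protein that raises extracellular pyrophosphate, was the other member of the set with a large difference. Its probe, ILMN_1232621, read 581, 568 and 528 in Control and 237, 265 and 247 in Glis2KD. Every array was above the background limit, and the lowest control value was well over the highest knockdown value. The means were 559 ± 27.4 and 250 ± 14.0 (SD, n = 3), a log2 difference of -1.16 ± 0.083 (SE), or 2.24-fold. The percent difference of the means was -55.4% with background included and -69.4% with the mode subtracted. The 50 nearest genes above background on chromosome 15 had a median of -0.01, with 10 higher and 8 lower, where 42.3% of all such genes were called.

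Limma called 2 of the 12 probes, Mgp and Ank, both lower, against 15.6% of all 45281 probes called and 7.76% called lower; since Mgp helped to define the set, nothing is read from this count. It called 0 probes of the set higher, against 7.84% of all probes, with 1 higher at an unadjusted p under 0.05. The median log2 fold change over the 12 probes was 0.00, as over all probes. The groups did not overlap for 4 of the 12, against 26.3% of all probes. Of the 12 probes, 8 had a mean above the background limit and 7 exceeded it on all 6 arrays.

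**Figure D1:**
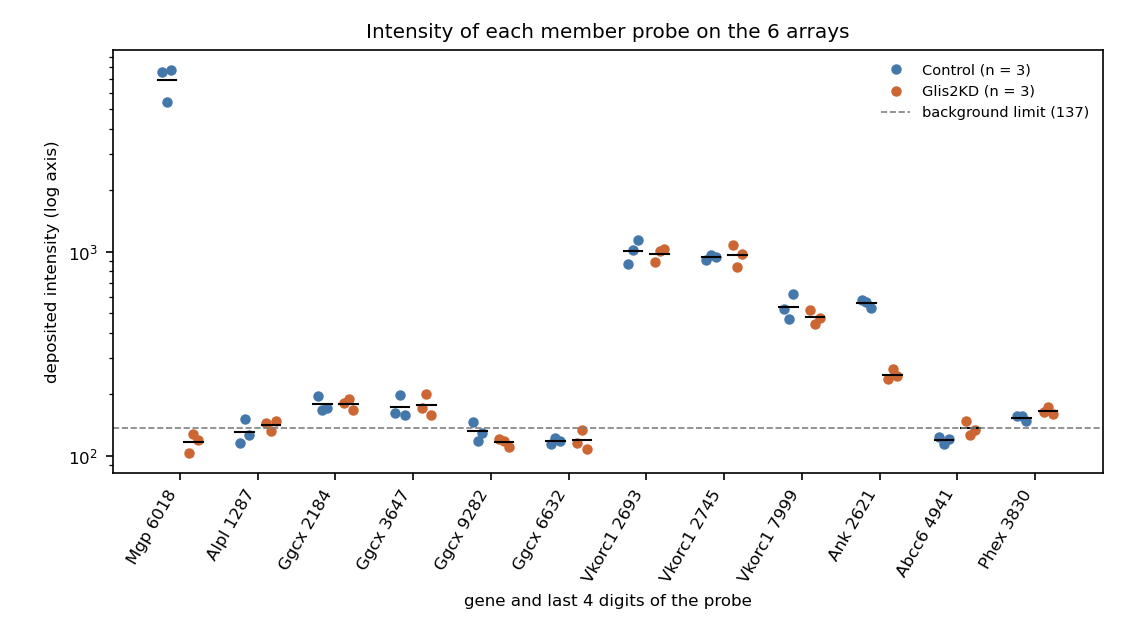
Deposited intensity (log axis) of each of the 12 probes on the 3 Control and 3 Glis2KD arrays, with black bars at group means and a dashed line at the background limit of 137; probes carry the gene name and their last 4 digits. Mgp goes from a mean of 6949 to 117, under the limit, and Ank from 559 to 250, while the groups lie close together for the other 10 probes.

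The vitamin K enzymes, on which the activity of Mgp depends, were not called on any of their 7 probes. Vkorc1, the epoxide reductase that recycles vitamin K and the target of warfarin, had 3 probes above the limit on all arrays. ILMN_2522693 read 872, 1024 and 1144 in Control and 888, 1003 and 1027 in Glis2KD. ILMN_3002745 read 912, 961 and 940 in Control and 1079, 839 and 975 in Glis2KD. ILMN_2497999 read 524, 470 and 618 in Control and 517, 441 and 472 in Glis2KD. The groups overlapped on each of these probes. Their log2 differences were -0.05 ± 0.097, 0.03 ± 0.092 and -0.17 ± 0.098 (SE), so changes the size of that of Ank lie many SEs away, while small ones could not be seen with 3 arrays per group.

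Ggcx, the carboxylase that completes Mgp, had 4 probes, of which ILMN_1232184 and ILMN_2933647 were above the limit on all arrays. The first read 197, 168 and 172 in Control and 182, 189 and 167 in Glis2KD. The second read 162, 198 and 159 in Control and 171, 200 and 159 in Glis2KD. Both showed overlapping groups at levels little above background, with log2 differences of 0.00 ± 0.088 and 0.03 ± 0.099 (SE). ILMN_1249282 exceeded the limit on 1 Control array and no Glis2KD array and had means of 132 and 117. ILMN_1226632, placed on another transcript accession than the other 3, was under the limit on all 6 arrays with a mean of 119 in each group. The dim probes therefore give no level, and Ggcx rests on the first pair.

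Among the other genes of pyrophosphate control, levels were at the edge of detection. Alpl, the phosphatase that removes pyrophosphate, read 116, 151 and 126 in Control and 145, 133 and 149 in Glis2KD, above the limit on 1 and 2 arrays. Abcc6, the transporter mutated in pseudoxanthoma elasticum, read 124, 114 and 121 in Control and 149, 127 and 134 in Glis2KD, above the limit on 1 knockdown array only. The knockdown values of Abcc6 lay above the control values, but 5 of the 6 were not above background, and its log2 difference of 0.19 ± 0.086 (SE) was not called. Alpl had 0.13 ± 0.095, with overlapping groups. Phex read 156, 157 and 148 in Control and 165, 174 and 160 in Glis2KD, all 6 above the limit. Its groups did not overlap, yet the step was small, 0.12 ± 0.081 (SE), and was not called. The 50 genes above background nearest to Phex on the X chromosome had a median of -0.08, with 16 lower and 2 higher, where 42.3% of all such genes were called.

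**Figure D2:**
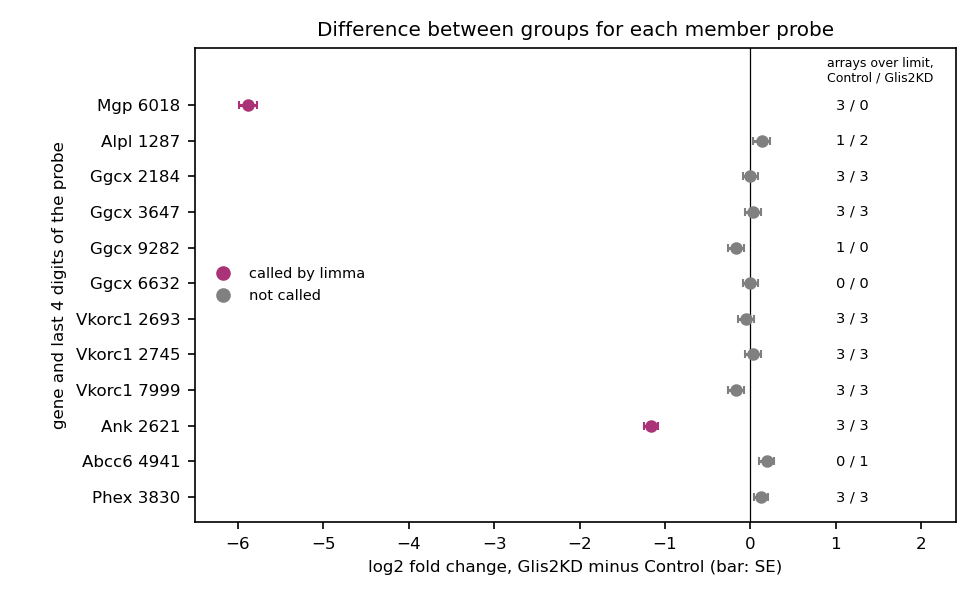
Log2 fold change (Glis2KD minus Control, bars are SE) of the 12 probes, coloured by limma's call over all probes, with the number of Control and Glis2KD arrays above the background limit at the right. Mgp lies at -5.88 and Ank at -1.16; the other 10 lie between -0.17 and 0.19.

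By the root mean square difference of log2 values relative to the Control mean over the 6 arrays, the 5 genes whose profile was nearest to that of Mgp were Aqp1, Itm2a, Masp1, Mmp13 and Tns4. Aqp1, a water channel, was nearest at 0.83 log2 units, followed by Itm2a, a membrane protein, at 1.38. Masp1, a complement protease, stood at 1.51, Mmp13, a collagenase, at 1.52, and Tns4, a tensin, at 1.82. Aqp1 read 10540, 9162 and 9580 in Control and 325, 289 and 480 in Glis2KD, and thus stayed above the limit on every array, unlike Mgp. The distances use the knockdown readings of Mgp as they stand, and since those are background and the true level only a bound, the sizes and the order of the distances hold for these readings alone. Each of the 5 was low on all 3 knockdown arrays and above the limit there, at means from 153 to 365. This likeness rests on a comparison of 2 groups and says little beyond a shared large difference.

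Around these genes, 7 lists of related genes held 142 genes, of which 134 were measured and 65 were above background. Each gene was represented by its brightest probe, its call is that of this probe, and a gene counts as under the background limit when its mean over the 6 arrays is. Limma called 38 of the 134, 23 higher and 15 lower, which is 28.4% against 22.0% of all 19057 genes; of the 65 above background 55.4% were called, against 42.3% of the 9642 such genes. The median log2 fold change was 0.03 against 0.004 for all genes. By list, in the order followed below, 44.4%, 15.8%, 15.8%, 40%, 44%, 25% and 18.5% of the measured genes were called. Over all 19057 genes, 10.9% were called higher and 11.1% lower. The lists were written with earlier results of this comparison known, so these counts describe them and single out none.

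**Figure D3:**
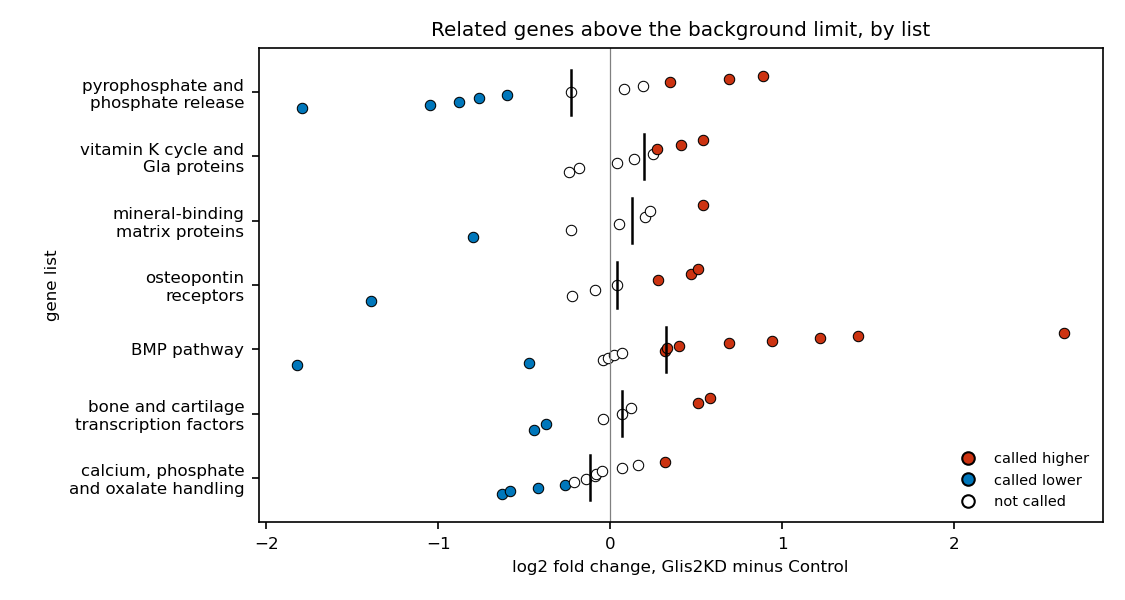
Log2 fold change (Glis2KD minus Control) of related genes above the background limit, one point per gene, filled where limma called it higher or lower; the vertical bar is the median of each list. The nucleotide and pyrophosphate list has more called genes below 0 than above it, 5 against 3, and the BMP list more above than below, with Fst at 2.64 and Bmp4 at -1.82.

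Genes for pyrophosphate and phosphate release differed in both directions, with the ectoenzymes Nt5e and Entpd2 lower and Enpp4, a relative of Enpp1, higher in the knockdown. Of 18 measured genes in that list, which also holds phosphate export, 5 fell, 3 rose and 10 were not called, where 11.1% of all genes fell and 10.9% rose; 11 of the 18 were above background and the median was 0.02. Nt5e, the ecto-5′-nucleotidase CD73 that turns AMP into adenosine and phosphate, read 433, 436 and 394 in Control and 121, 121 and 123 in Glis2KD, all 3 of the latter under the limit. On this probe, its brightest, Nt5e fell at least 3.07-fold (limma's adjusted p = 1.91e-13). Its other probe was also above background and called lower. The mean of its 2 probes had a smaller log2 fold change of -1.11 (limma's adjusted p = 5.79e-07). Entpd2, an ectonucleotidase acting on ATP, read 240, 246 and 217 against 123, 121 and 97.2, again under the limit, and fell at least 1.71-fold (limma's adjusted p = 2.19e-08). On the brightest probe of both genes the groups were far apart, and the knockdown side is a bound.

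Entpd5, a nucleoside diphosphatase of the endoplasmic reticulum, had a log2 fold change of -0.88 ± 0.093, and Enpp5, a relative of Enpp1, one of -0.76 ± 0.081 (SE), with limma's adjusted p of 2.33e-07 and 2.44e-07. The mean of the 4 probes of Entpd5 gave -0.57 (limma's adjusted p = 2.73e-05). Enpp5 was very even within groups, at 671, 681 and 622 in Control and 388, 387 and 391 in Glis2KD. The remaining 4 called genes of the list are named after their values were seen. Xpr1, the exporter of phosphate from cells, went from 779 ± 56.2 to 514 ± 42.5 (SD, n = 3), a call that was lost with the mean of its 7 probes (log2 fold change -0.18, limma's adjusted p = 0.0625). Enpp4, a membrane nucleotide hydrolase, read 117, 139 and 121 in Control, where 1 array was above the limit, and 296, 222 and 190 in Glis2KD (limma's adjusted p = 5.60e-06). The Control mean of 126 was under the limit, so the size of the rise depends on the treatment of background: the log2 fold change was 0.89 as deposited, 1.66 with normexp and 2.61 with background subtracted. Ppa1, the cytosolic pyrophosphatase, rose from 8243 ± 1150 to 13187 ± 199. Slc20a1, a sodium-phosphate importer, rose by 0.35, and lost the call without Control replicate 1, with background subtracted, with normexp correction and with the mean of its 3 probes, where the highest of limma's adjusted p was 0.591. Phospho1 and Smpd3, which act in matrix vesicles of mineralizing cells, were under the background limit.

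**Figure D4:**
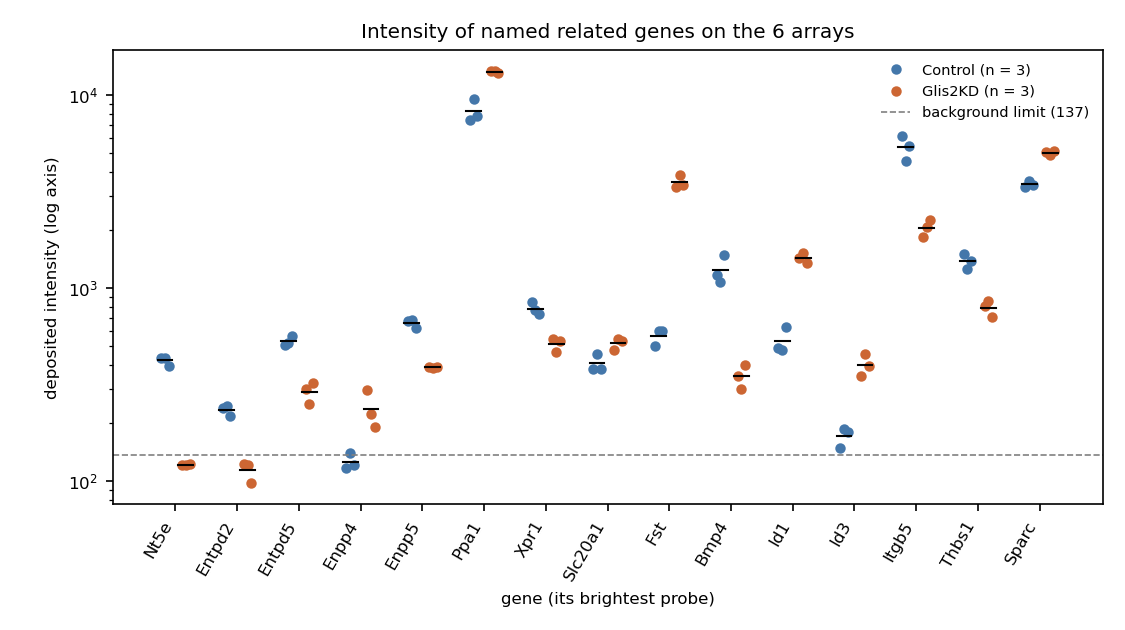
Deposited intensity (log axis) of 15 related genes, by their brightest probe, on the 3 Control and 3 Glis2KD arrays, with black bars at group means and the background limit of 137 dashed. Nt5e and Entpd2 drop under the limit in the knockdown, Ppa1 rises from 8243 to 13187, and Fst and Bmp4 move in opposite directions.

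In the vitamin K cycle and among other proteins carrying Gla residues, 3 of 19 measured genes rose and 0 fell by limma (1 fell at an unadjusted p under 0.05); the median was 0.06 and 8 were above background. Prrg2, a transmembrane Gla protein, rose from 659 ± 59.2 to 959 ± 77.9 (SD, n = 3; log2 fold change 0.54, limma's adjusted p = 9.41e-05), and missed the threshold with background subtracted (0.0504). Bglap2, an osteocalcin gene with near-identical copies that its probe may not separate, had no Control array above the limit and rose at least 1.30-fold. Vkorc1l1, the paralog of Vkorc1, read 1637, 1681 and 1679 in Control and 1910, 2117 and 2020 in Glis2KD. Its rise of 0.27 ± 0.081 on the log2 scale (limma's adjusted p = 0.0213) was not called without Control replicate 1 (0.0752), Control replicate 2 (0.0503), Glis2KD replicate 2 (0.103) or Glis2KD replicate 3 (0.0585), nor with normexp correction (0.277) or the mean of its 4 probes (0.194). Gas6 and Pros1, Gla proteins that bind TAM receptors, were under the limit. Aifm2, a vitamin K reductase, had 0.14 and was not called. Calu, calumenin, which binds the carboxylase, had -0.18 without a call on its brightest probe, but 2 of its other 3 probes were called and the mean of its 4 probes was -0.25 (limma's adjusted p = 0.0111), so the count of 0 that fell holds for brightest probes.

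Matrix proteins that bind mineral or restrain its growth were mostly below detection, with 6 of 19 measured above background. Of the 19, 2 rose and 1 fell, and the median was 0.03. Thbs1, thrombospondin 1, fell from 1376 ± 126 to 788 ± 75.1 and Sparc, osteonectin, a collagen- and calcium-binding glycoprotein, rose from 3451 ± 130 to 5004 ± 128 (SD, n = 3), with limma's adjusted p of 7.34e-07 and 2.74e-05. Both had groups well apart on these probes. The mean of the 3 probes of Sparc gave a log2 fold change of 0.39 (limma's adjusted p = 0.000509). Tgm2, a transglutaminase that crosslinks osteopontin, was called higher at a mean of 144 against 114 but was near background. It lost the call when any array other than Glis2KD replicate 2 was left out, with limma's adjusted p from 0.0582 to 0.223, and with background subtracted (0.466), normexp (0.156), an offset of 50 (0.0870) or the mean of its probes (0.251). Of the close relatives of Spp1, Dmp1 and Dspp were under the limit on all 6 arrays and Ibsp on 5, while Mepe exceeded it slightly on 2 Control and 3 Glis2KD arrays, at means of 132 and 142.

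Receptors of osteopontin changed in both directions: of 10 measured, 3 rose and 1 fell, with a median of 0.02. Itgb5, an integrin subunit pairing with alpha V, read 6108, 4552 and 5452 in Control and 1827, 2058 and 2241 in Glis2KD, a log2 fold change of -1.39 ± 0.10 (SE, limma's adjusted p = 6.95e-10). Itgb1 rose by 0.51 and Itgb6 by 0.47, the latter not called with normexp correction (limma's adjusted p = 0.0733). Averaged over their probes, Itgb1 rose by 0.38 and Itgb6 by 0.35. Cd44 rose by 0.28 on its brightest probe. Of its 9 probes, 1 was called lower, its mean over probes moved by 0.01 (limma's adjusted p = 0.961), and the call was lost without Control replicate 2 (0.121), Control replicate 3 (0.0983), Glis2KD replicate 1 (0.103) or Glis2KD replicate 2 (0.0922), with background subtracted (0.160) and with normexp (0.303).

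BMPs drive bone formation and are bound by Mgp. Of 25 measured genes of that pathway, 9 rose, 2 fell and 14 were not called, with a median of 0.07 and 14 above background. Some of these calls were lost in alternatives, and the genes are named after their values were seen. Among the genes that rose they were Smad1, Acvr1, Grem1 and Smad5 (highest of limma's adjusted p 0.491, 0.342, 0.0958 and 0.116). Among those that fell it was Twsg1 (0.138). The mean of Grem1 was under the limit. Bmp4 read 1161, 1072 and 1479 in Control and 350, 300 and 400 in Glis2KD, a log2 fold change of -1.82 ± 0.11 (SE, limma's adjusted p = 3.49e-11), or -0.91 as the mean of its 2 probes. Fst, follistatin, which binds activins and some BMPs, read 498, 602 and 596 in Control and 3331, 3842 and 3407 in Glis2KD (2.64 ± 0.092, adjusted p = 1.86e-15 by limma). Id1 and Id3, transcriptional targets of BMP signalling, rose by 1.44 ± 0.099 and 1.22 ± 0.10 (SE). Bmp4 and these Id genes therefore differed in opposite directions, whereas Bmp7, named after its values were seen, rose from 729 ± 45.1 to 1176 ± 76.2 (SD, n = 3), a log2 fold change of 0.69, or 0.36 as the mean of its 2 probes. Bmp2 and Bmp6 were under the background limit, and the receptors Bmpr1a and Bmpr2 had -0.01 and -0.04.

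Of 16 measured bone and cartilage transcription factors, 2 rose and 2 fell, with a median of -0.05. Dlx3 rose by 0.51 from 159 ± 3.92, near background, and Tcf7l2 by 0.58, the latter not called with its 6 probes averaged, with background subtracted or with normexp (limma's adjusted p = 0.0810, 0.138 and 0.0604). Nfatc1 and Atf4 had -0.44 and -0.37. Nfatc1 was not called under the same 3 settings (0.101, 0.0625 and 0.0858), nor Atf4 with background subtracted or normexp (0.101 and 0.185). Sp7 and Msx2 were under the limit, and Sox9, a cartilage factor also made in renal epithelium under repair, was bright in both groups at 11278 ± 693 and 12207 ± 525 without a call on that probe. Its other probe was called, and the mean of both gave 0.29 (limma's adjusted p = 0.00478).

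Renal handling of calcium, phosphate and oxalate was sparsely detected, with 12 of 27 measured genes above background. Of the 27, 4 fell and 1 rose, and the median was -0.02. Fgfr1, a receptor for the phosphate hormone Fgf23 together with Klotho, was under the limit on all knockdown arrays. On its brightest probe it fell at least 1.37-fold (limma's adjusted p = 1.91e-05). The mean of its 2 probes gave a log2 fold change of -0.40 (limma's adjusted p = 0.00114). Rxra, the partner of the vitamin D receptor, fell by 0.58 (limma's adjusted p = 0.275 with background subtracted), and the sodium-calcium exchanger Slc8a1 by 0.42 (0.266 with background subtracted, 0.0992 with normexp and 0.242 with the mean of its 4 probes). Hoga1, an enzyme of glyoxylate metabolism, rose by 0.32, but not without Glis2KD replicate 2 (limma's adjusted p = 0.0601) or replicate 3 (0.0885), with background subtracted (0.140) or with normexp (0.156). Vdr itself had -0.08 and was not called, and Kl was under the limit.

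Mgp is made in abundance by vascular smooth muscle, cartilage and fibroblasts, so markers of these cells were set beside it. Of 9 fibroblast markers 1, the proteoglycan Dcn, was above the limit, from 275 ± 30.3 in Control to 139 ± 17.7 in Glis2KD (SD, n = 3), while Col1a1, Col3a1, Pdgfra and Pdgfrb had means under it, Col1a1 exceeding it on 1 knockdown array. Limma called 1 marker of that list lower, Dcn, and 1 higher, Col1a2. Col1a2 had means of 112 and 135, both under the limit (log2 fold change 0.26, limma's adjusted p = 0.0386). The summed intensity of that list ran from 1175 to 1232 in Control and from 1085 to 1103 in Glis2KD. Those sums include background and were mostly readings of genes under the limit, so they say little about fibroblast content. Of 6 smooth muscle markers, Acta2 and Smtn were above the limit and Myh11, Cnn1, Des and Tagln under it; the sum ran from 5259 to 5888 and from 6476 to 6845, with Acta2 moving from 145 ± 24.6 to 1302 ± 172. Of 7 chondrocyte markers limma called 0 by their brightest probes (0 at an unadjusted p under 0.05), although 1 other probe of Sox9 and 2 of Col2a1 were called. Matn1 was under the limit on every array and Acan on all but 2 knockdown arrays; the sums, 11361 to 12742 and 12631 to 13558, were nearly all Sox9. By their mean over the 6 arrays, all 4 measured osteoblast and all 5 endothelial markers were under the limit, as were 4 of 5 macrophage markers. Of these, Kdr exceeded it on 3 arrays, C1qa on 2, and Ibsp and Tek on 1. The macrophage marker above the limit, Csf1r, was called higher by limma, with a log2 fold change of 0.44. Renal epithelial genes differed in both directions, 2 higher and 2 lower of 7. Their sums, 56829 to 60294 in Control and 78298 to 80763 in Glis2KD, were mostly the keratins Krt8, which rose from 29990 to 44535, and Krt18, while the cadherins Cdh16 and Cdh1 fell by 1.41 and 0.38 on the log2 scale, Epcam was at the limit with means of 140 and 142, and Pax2 was under it. The proximal tubule list went from 14301 to 16106 in Control to 3887 to 4197 in Glis2KD. Most of that drop was Aqp1, which went from 9760 to 365, with Mme going from 855 to 118 and Dab2 from 3310 to 2398. The other 9 of the 12 measured genes had means under the limit and were not called, and the list median was 0.02. Whether cell makeup shifted, and its part in the level of Mgp, was not tested.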

How the data were processed

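The authors deposited 1 linear intensity per probe for each of 6 arrays; the software and normalization behind them are unstated in the labels (not given in the sources used here). The deposited values share 1 distribution (log2 medians within 0.000288) and include background. They were floored at 16, which altered 0 values, and log2-transformed. Of 45281 probes, 34885 had 1 gene symbol, 18 several and 10378 none; 34807 matched RefSeq (GRCm38.p6) by Entrez identifier and 0 symbols changed.

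Glis2KD was compared with Control over all probes with limma 3.58.1 (lmFit, eBayes without trend; R 4.3.3), Benjamini-Hochberg adjusted over probes at 0.05; the fit was tested on simulated data. The 9 genes, the lists, their background limit and the likeness measure were chosen with earlier results of these data known. Named are all probes of the 9 genes, Glis2, up to 4 called genes per list by smallest p, and the 5 profiles nearest to Mgp; others are said to be chosen after their values were seen or illustrate genes without a call. A bound on a fold uses the limit in place of dimmer arrays. As alternatives, the fit was repeated with the replicate number as a block, after quantile normalization or median centring, after background subtraction or normexp (offset 16), with a floor of 32 or an offset of 50, on brighter probes by 2 rules, by eBayes with trend and robust, with 1 row per gene, and without each array in turn. The number of arrays limits the precision.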

Additional observations from a re-analysis of the deposited data

How the results depend on the processing

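Mgp and Ank were called lower by limma, and no other probe of the set was called, under each of the 16 alternatives run for them. The 2 alternatives restricted to brighter probes did not hold all 12 probes. With background subtracted, normexp correction and an offset of 50, the log2 fold change of Mgp was -8.72, -7.42 and -5.37 and that of Ank -1.71, -1.48 and -1.02; the size for Mgp is set by how its background-level knockdown values are treated. Leaving out 1 array at a time gave -6.05 to -5.79 for Mgp and -1.21 to -1.13 for Ank, 3032 to 3264 probes called higher and 2990 to 3257 lower, and 18 to 22 related genes called higher and 14 to 15 lower. With background subtracted 1745 probes were called higher and 1692 lower, and with normexp 1634 and 1659, against 3549 and 3516; the related genes called higher went from 23 to 14 and 13, and those called lower from 15 to 11 and 10. The cause was not tested. Of the 38 called related genes, 19 were called in each alternative that kept them, 14 lost the call with background subtracted, 15 with normexp and 9 when an array was left out; 0 changed sign. Averaging over probes added calls for 7 related genes whose brightest probe was not called.

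With the replicate number as a block, 3414 probes were called higher and 3376 lower, and 23 and 14 related genes. Deviations of arrays with the same number in the other group correlated at -0.041, -0.026 and -0.030, and those with differing numbers at 0.00083 to 0.031. Deviations cancel out within a group, so these values depend on each other. The numbers were not taken as pairs. Probes near background limit what can be said of Alpl, Abcc6 and Ggcx.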
